A study of Danio rerio with 16 samples.

Results

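The nuclear genes of oxidative phosphorylation were followed in whole zebrafish embryos (Danio rerio) across gastrulation and early segmentation. They were chosen by symbol: names starting with ndufa, ndufb, ndufc, ndufs, ndufv, uqcr or atp5, or cox followed by a digit from 4 to 8, and the names sdha, sdhb, sdhc, sdhda and sdhdb. The rule found 102 of the 32520 genes in the count table, namely 42 genes of complex I, 3 of complex II, 8 of complex III, 21 of complex IV, 20 of complex V and 8 complex I assembly factors of the ndufaf family. No measured value entered the rule. The symbols sdhda and sdhdb were not used in the symbol table, which lists a pair of genes as SDHD, so the smallest membrane anchor of complex II lies outside the rule.

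All embryos were wild type and received an LNA (locked nucleic acid, a chemically modified antisense oligonucleotide) by injection at 0 hpf, where hpf stands for hours post fertilization. Knockdown groups were given Bik-1 LNA, directed at the zebrafish endogenous retrovirus BHIKHARI, and control groups a scrambled LNA. Each treatment was sampled at 8, 11, 14 and 18 hpf with 2 replicates, which gives 8 groups and 16 libraries of polyadenylated RNA. No uninjected embryos were analysed here, and the labels do not say how many embryos made up a library or whether a clutch was shared between replicates. The p-values therefore reflect only how these samples spread, which may be technical.

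Oxidative phosphorylation takes place in the inner mitochondrial membrane. Complex I takes electrons from NADH and complex II takes them from succinate, complex III passes them on through cytochrome c, and complex IV hands them to oxygen. Complexes I, III and IV pump protons as they do so, and complex V, the ATP synthase, lets the protons flow back through its rotating c ring and makes ATP in its F1 head. Each complex except complex II also holds subunits encoded by the mitochondrial genome. The early zebrafish embryo lives on mitochondria laid down in the egg.

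The targeted retrovirus was lower in the knockdown at each time: its internal part, counted as the family BHIKHARI_I-int, had 532 and 558 CPM (counts scaled to library size) in knockdown against 1995 and 2070 CPM in control embryos at 8 hpf, and 12.2 and 18.9 CPM against 38.5 and 27.6 CPM at 18 hpf. Library totals ran from 4399855 to 7694887 counts. The 13 genes with mitochondrial genome symbols had 0 counts in every library, so the nuclear subunits could not be set beside their mitochondrial partners. A set of 10 gastrula genes, with tbxta and chrd among them, fell between 8 and 18 hpf in controls in all 10 cases. Of 16 somite and muscle genes 14 rose, with 1 lower. Of all features tested, 26.4% fell and 33.7% rose in that comparison. On the first principal component of all features, which held 65.9% of the variance and ordered the libraries by time, both knockdown libraries of 14 hpf and of 18 hpf had lower scores, towards earlier times, than both controls. The scores at 14 hpf were 18.3 and 32.4 in knockdown, against 40.5 and 48.6 in control embryos. At 8 and 11 hpf the treatments overlapped. Knockdown scored -125.5 and -141 against -118.5 and -137.7 in controls at 8 hpf, and -8 and -44.5 against -4 and -26.6 at 11 hpf. Between libraries of the same replicate number, knockdown had the lower score at every time. The part of this in the results was not tested.

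Of the 102 genes, 93 had enough counts to be tested. The remaining 9 held at most 44 counts over all libraries together and were NDUFA4L2, ndufa4l2b, ndufa9b, cox4i1l, cox6b1, cox8b, a copy listed as COX6A1 and a pair of the 3 genes listed as COX5B. One of these, ndufa4l2b, had 0 counts throughout. Levels are given in CPM scaled by the TMM method, and since CPM ignores gene length they compare a gene with itself across libraries and not with other genes.

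The summed share of counts held by the 102 genes grew with time in both treatments. In knockdown embryos it was 0.462% and 0.442% at 8 hpf, then 0.632% and 0.603% at 11 hpf, 0.675% and 0.709% by 14 hpf and 0.794% and 0.803% by 18 hpf. In controls it was 0.462% and 0.450% at 8 hpf, then 0.643% and 0.610% at 11 hpf, 0.684% and 0.710% by 14 hpf and 0.856% and 0.736% by 18 hpf. Within each treatment no library overlapped with one of an earlier time. The knockdown and control values overlapped at every time. Between libraries of the same replicate number, knockdown was the lower except in replicate 1 at 8 hpf and replicate 2 at 18 hpf. That difference in shares was not tested. The pair of 18 hpf controls differed by more than any other pair, and replicate 2 lay below both knockdown libraries of its time. These are whole embryos, so fewer cells of a type and less RNA per cell cannot be told apart.

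**Figure D1:**
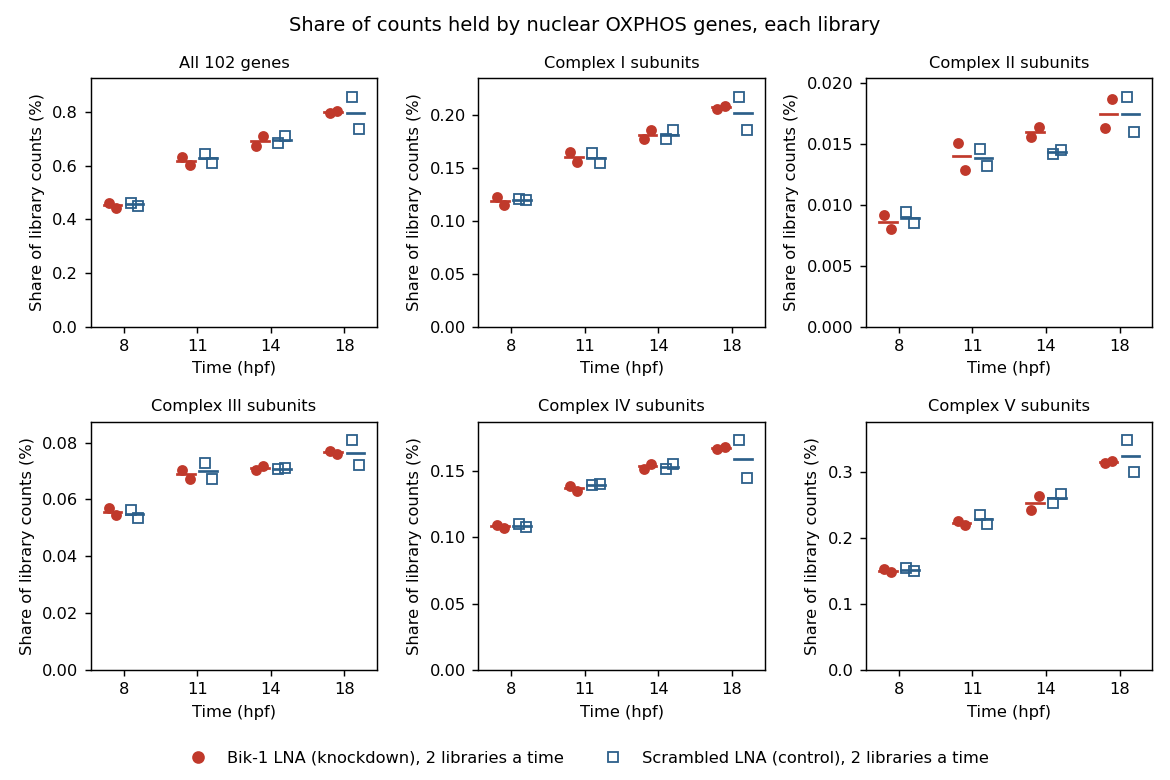
Share of each library's counts (%, vertical axis from 0) held by all 102 genes and by the subunits of each complex, at 8, 11, 14 and 18 hpf. Filled circles are knockdown libraries, open squares control libraries, and short lines group means of 2; the total climbs to between 0.736% and 0.856% at 18 hpf in both treatments.

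In control embryos the relative levels of these genes rose with time far more often than they fell. Between 8 and 18 hpf, 64 of the 93 tested genes rose and 1 fell at an adjusted p under 0.05, where 33.7% of all 17756 features tested rose and 26.4% fell. The median log2 fold change was 0.76 over the 93 genes and 0.10 over all features, and 88 of 93 lay above 0. Among all genes averaging 10 CPM or more, 32.4% rose and 34.7% fell with a median of -0.07. DESeq2 called 63 higher and 0 lower. Of the 93, 28 passed the test in neither direction.

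By step, the calls lay in the first and the last of 3. From 8 to 11 hpf, 29 of 93 genes rose, where 18.4% of all features rose and 12% fell, and 0 fell, with 1 lower at an unadjusted p under 0.05 and 0 lower in DESeq2. Without control 8 hpf replicate 2 that count was 15, where 10% of all features rose, and without control 11 hpf replicate 1 it was 15, where 11.5% did. From 11 to 14 hpf edgeR called 0 of 93, where 2.64% of all features were called, and DESeq2 called 0. At an unadjusted p under 0.05 in edgeR 13 were higher, beside 1647 of all 17756 features. The lowest adjusted p there was 0.0885, for NDUFB1, and 81 of 93 values lay above 0 with a median of 0.17. From 14 to 18 hpf 11 of 93 rose, where 7.76% of all features rose and 3.85% fell, and 0 fell, with 1 lower at an unadjusted p under 0.05 and 0 lower in DESeq2. This last count changed when single libraries were left out, and so did the share of all features. It was 1 and 0 without replicates 1 and 2 of control 14 hpf, where 2.62% and 3.44% of all features rose, and 2 and 4 without replicates 1 and 2 of control 18 hpf, where 4.66% and 3.55% did. It was 6 without either knockdown library of 18 hpf, which bears on it through the shared estimate of spread, where 6.68% and 6.72% of all features rose.

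Group means followed the same course gene by gene. In controls the mean increased at every step in 60 of 93 genes (64.5%), against 23.1% of all genes tested, and in knockdown embryos in 64 of 93 (68.8%), against 23.2%. The mean was highest at 18 hpf in 78 of 93 genes in knockdown and 76 of 93 in control embryos, against 37.6% and 37.0% of all genes tested. It decreased at every step in 0 of 93 in both treatments, against 19.5% of all genes tested in knockdown and 21.0% in controls. This is a description of means that carries no test.

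Complex I, which oxidises NADH, rose in part. Between 8 and 18 hpf in controls, 24 of its 39 tested genes rose and 15 were not called, with a median log2 fold change of 0.56. Of the 7 core subunits, which carry the flavin and the iron-sulfur clusters, 4 were called, and of the 32 accessory subunits 20. The core subunit NDUFV1, which binds NADH, had 28.0 and 25.8 CPM in controls at 8 hpf, then 62.2 and 61.8 at 11 hpf, 61.7 and 71.0 by 14 hpf and 97.6 and 88.8 by 18 hpf. Its step to 11 hpf was a log2 fold change of 1.20 ± 0.16 (SE, n = 2 a group; edgeR adjusted p = 3.77e-05), and 18 over 8 hpf was 1.79 ± 0.16 (edgeR adjusted p = 1.01e-07). The core subunits NDUFV2 and NDUFS7 were not called, with log2 fold changes of 0.09 and 0.22 for 18 over 8 hpf.

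NDUFB10, an accessory subunit of the membrane arm, made the largest step of the called complex I genes from 8 to 11 hpf. It had 20.8 and 10.9 CPM in controls at 8 hpf, then 56.3 and 43.8 at 11 hpf, 58.2 and 64.5 by 14 hpf and 82.7 and 73.5 by 18 hpf. The 8 hpf values lay below all later ones. The log2 fold change was 1.66 ± 0.23 for 11 over 8 hpf and 2.30 ± 0.23 for 18 over 8 hpf (edgeR adjusted p = 5.69e-05 and 3.46e-07). NDUFB1, also of the membrane arm, had 4.75 and 6.46 CPM at 8 hpf, then 12.1 and 8.20 at 11 hpf, 20.2 and 17.6 by 14 hpf and 25.1 and 23.6 by 18 hpf. The groups did not overlap at any step, and 18 over 8 hpf was 2.11 ± 0.28 (edgeR adjusted p = 8.88e-06). NDUFB7, a further membrane arm subunit, had 99.8 and 76.8 CPM at 18 hpf against 58.7 and 59.8 at 14 hpf, a log2 fold change of 0.57 (edgeR adjusted p = 0.0379). That call was lost without either control library of 14 hpf (0.201 and 0.159), without control 18 hpf replicate 1 (0.300), without either knockdown library of 14 hpf (0.0516 and 0.0514), and with library totals alone (0.0587).

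The paralogs NDUFA4 and ndufa4b are given side by side, and the difference between them was not tested. Both were counted with complex I, by symbol. NDUFA4, which in mammals is now counted with complex IV, had 144 and 174 CPM in controls at 8 hpf, then 168 and 142 at 11 hpf, 147 and 167 by 14 hpf and 193 and 188 by 18 hpf. Its log2 fold change of 0.26 was not called (edgeR adjusted p = 0.132). Its paralog ndufa4b had 0 counts in both controls at 8 hpf and 90 counts in the pair at 18 hpf, which is at least 30.7-fold higher when 3 counts over the group stand for 0. In CPM it had 9.01 and 6.83 at 18 hpf, against 0.656 and 0.761 at 14 hpf in controls. It was the 1 gene of the 93 that passed the filter on low counts through libraries of a single time, 18 hpf, so its higher calls, which are included in the counts of risen genes, followed from the filter and are not support. At 18 hpf the pair of knockdown libraries stood at 5.67 and 7.78 CPM, against 9.01 and 6.83 CPM in controls, and overlapped with them.

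Among the 8 ndufaf assembly factors, which build complex I and are not part of the finished enzyme, 3 rose between 8 and 18 hpf in controls. This is near the share of all features that rose, 33.7%. NDUFAF8, a small partner of NDUFAF5 in human cells, had 1.15 and 1.19 CPM at 8 hpf, then 3.59 and 2.21 at 11 hpf, 5.25 and 4.72 by 14 hpf and 8.57 and 8.09 by 18 hpf. NDUFAF5, which modifies a core subunit in human cells, had 6.88 and 4.93 CPM at 8 hpf, then 11.6 and 10.9 at 11 hpf, 15.6 and 18.7 by 14 hpf and 25.3 and 28.6 by 18 hpf. Groups of successive times did not overlap in either gene. The log2 fold changes of 18 over 8 hpf were 2.81 ± 0.45 for NDUFAF8 and 2.19 ± 0.29 for NDUFAF5 (edgeR adjusted p = 5.70e-05 and 8.36e-06). The first step of NDUFAF5, 0.92 (edgeR adjusted p = 0.0270), was not called without control 8 hpf replicate 2 (0.207), control 11 hpf replicate 1 (0.106) or control 11 hpf replicate 2 (0.0568). NDUFAF3 also rose between 8 and 18 hpf, by 0.57, and NDUFAF1, NDUFAF2, NDUFAF4, NDUFAF6 and NDUFAF7 were not called.

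Complex II, the succinate dehydrogenase that also serves the citric acid cycle, is encoded wholly in the nucleus. SDHB, its iron-sulfur subunit, had 34.7 and 32.0 CPM in controls at 8 hpf, then 69.4 and 55.3 at 11 hpf, 64.6 and 63.3 by 14 hpf and 102 and 80.9 by 18 hpf. SDHA, its flavoprotein, had 42.6 and 40.6 CPM at 8 hpf, then 50.3 and 48.9 at 11 hpf, 50.2 and 52.5 by 14 hpf and 62.7 and 56.2 by 18 hpf. SDHC, a membrane anchor, had 22.1 and 18.2 CPM at 8 hpf, then 24.5 and 21.4 at 11 hpf, 20.8 and 27.4 by 14 hpf and 28.6 and 28.0 by 18 hpf. All later values of SDHB and SDHA lay above those of 8 hpf, while SDHC groups overlapped up to 14 hpf and separated from the earlier ones at 18 hpf. The log2 fold change of 18 over 8 hpf was 1.45 ± 0.19 for SDHB, 0.51 ± 0.17 for SDHA and 0.49 ± 0.23 for SDHC (edgeR adjusted p = 6.44e-06, 0.0156 and 0.0734). SDHB made a called step of 0.90 from 8 to 11 hpf (edgeR adjusted p = 0.00179). Without control 8 hpf replicate 2 the adjusted p of SDHA was 0.0791, and without control 18 hpf replicate 1 it was 0.0927. With library totals alone SDHC was called (0.0455). Outside the rule, the SDHD gene ENSDARG00000030139 was looked up after the values had been seen. It had 50.1 and 38.1 CPM in controls at 18 hpf, against 6.06 and 6.97 at 8 hpf. The other gene listed as SDHD is not described here, so these values do not stand for both.

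Complex III, which hands electrons to cytochrome c, had the single call below 0. Of its 8 genes 5 rose, 1 fell and 2 were not called between 8 and 18 hpf in controls. UQCRFS1, the Rieske iron-sulfur protein, had 138 and 139.7 CPM at 8 hpf, then 127 and 122 at 11 hpf, 102 and 112 by 14 hpf and 118 and 108 by 18 hpf. Its 8 hpf values were above all later ones, and the log2 fold change of 18 over 8 hpf was -0.30 ± 0.11 (edgeR adjusted p = 0.0282). That call was lost with RLE size factors (0.0547), with library totals alone (0.0783), without the expression filter (0.116) and in DESeq2 (0.0869), and also without control 8 hpf replicate 1 (0.0539), control 8 hpf replicate 2 (0.0868) or control 18 hpf replicate 2 (0.148). UQCRC1, a core protein of the same complex, had 69.4 and 61.5 CPM at 8 hpf, then 82.1 and 83.1 at 11 hpf, 98.9 and 98.1 by 14 hpf and 109 and 113 by 18 hpf, with no overlap between successive times. UQCR10, a small subunit, had 114 and 98.3 CPM at 18 hpf against 53.2 and 45.9 at 8 hpf. The log2 fold change of UQCRC1 was 0.76 ± 0.12, and UQCR10 was 2.14-fold higher (edgeR adjusted p = 7.53e-05 and 6.66e-05).

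Complex IV, cytochrome c oxidase, had 10 of 15 tested genes higher at 18 than at 8 hpf in controls, with a median log2 fold change of 0.65. COX4I1, the regulatory subunit IV, had 138 and 128 CPM at 8 hpf, then 165 and 177 at 11 hpf, 186 and 208 by 14 hpf and 248 and 204 by 18 hpf. The 18 hpf values lay above those of 8 and 11 hpf, and the rise over 8 hpf was 0.76 ± 0.11 (edgeR adjusted p = 3.17e-05). COX7C, a small subunit, had 123 and 85.3 CPM at 18 hpf against 124 and 122 at 8 hpf, and its -0.25 was not called (edgeR adjusted p = 0.160). Its 18 hpf replicates lay far apart, as did the summed complex IV share at that time, 0.167% and 0.168% in knockdown against 0.173% and 0.144% in control embryos. The isoforms COX4I2 and cox7a1 were low, at 1.80 to 5.84 CPM and 0.162 to 7.95 CPM over all 16 libraries, and neither was called. Of the 3 genes listed as COX5B only ENSDARG00000015978 had enough counts, and reads shared by such copies could be split in ways the counts do not show.

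Complex V, the ATP synthase, was called higher throughout. All 20 of its genes rose between 8 and 18 hpf in controls, with log2 fold changes of 0.50 to 2.02 and a median of 1.15. They comprised 5 of 5 genes of the F1 head, 4 of 4 of the peripheral stalk, 3 of 3 of the c ring, 6 of 6 small membrane subunits and 2 of 2 inhibitory factors. ATP5F1B, the catalytic beta subunit, had 223 and 242 CPM at 8 hpf, then 334 and 355 at 11 hpf, 379 in both by 14 hpf and 539 and 487 by 18 hpf. ATP5PO, the stalk subunit that binds the F1 head, had 63.4 and 46.8 CPM at 8 hpf, then 104 and 99.8 at 11 hpf, 127 and 130.1 by 14 hpf and 199.9 and 170.4 by 18 hpf. Neither gene had overlapping groups at any step, and their log2 fold changes of 18 over 8 hpf were 1.14 ± 0.11 and 1.75 ± 0.15 (edgeR adjusted p = 1.79e-07 and 1.10e-07). Of the 11 genes that rose from 14 to 18 hpf, 8 belonged to complex V and 3, by symbol, to complex I. The 3 include ndufa4b, whose call followed from the filter.

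The inhibitory factor atp5if1b, whose product blocks ATP hydrolysis by the synthase, had 15.4 and 11.9 CPM in controls at 8 hpf, then 37.0 and 25.5 at 11 hpf, 36.6 and 30.7 by 14 hpf and 60.5 and 50.8 by 18 hpf. It rose by 1.19 from 8 to 11 hpf and by 0.72 from 14 to 18 hpf (edgeR adjusted p = 0.00130 and 0.0417). The late call lay near the threshold. Leaving out any 1 of 8 libraries, those of 14 and 18 hpf in both treatments, ended it, with log2 fold changes of 0.59 to 0.85. Without a knockdown library, which bears on it through the shared estimate of spread, the value stayed at 0.72. Library totals alone gave an edgeR adjusted p of 0.0561, and leaving out the repeat families gave 0.0517. Its paralog atp5if1a had 195 and 174 CPM at 18 hpf against 119.9 and 116 at 8 hpf, a log2 fold change of 0.64. The small membrane subunit atp5meb had 111 and 113 CPM at 18 hpf against 71.0 and 66.0 at 14 hpf, a rise of 0.71 (edgeR adjusted p = 0.0226) that was not called once replicate 1 or 2 of the 14 hpf controls (0.114 and 0.155) or of the 18 hpf controls (0.0917 and 0.129) was left out.

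The c ring is encoded by 3 of the tested genes. In controls atp5mc1 had 53.5 and 60.4 CPM at 8 hpf, then 57.8 and 38.9 at 11 hpf, 55.5 and 51.0 by 14 hpf and 101 and 92.3 by 18 hpf. Its groups overlapped up to 14 hpf and lay higher at 18 hpf, and 18 over 14 hpf was a log2 fold change of 0.86 ± 0.17 (edgeR adjusted p = 0.00355). Without control 14 hpf replicate 2 that adjusted p was 0.0547. Its relative atp5mc3b had 128 and 129.9 CPM at 8 hpf, then 169 and 175 at 11 hpf, 194 and 235 by 14 hpf and 264 and 224 by 18 hpf. It made its called step early, 0.42 from 8 to 11 hpf (edgeR adjusted p = 0.0126). No pair of paralogs among the 93 genes was called in opposite directions between 8 and 18 hpf in controls. With UQCRFS1 as the only fall, such a pair could hardly occur.

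**Figure D2:**
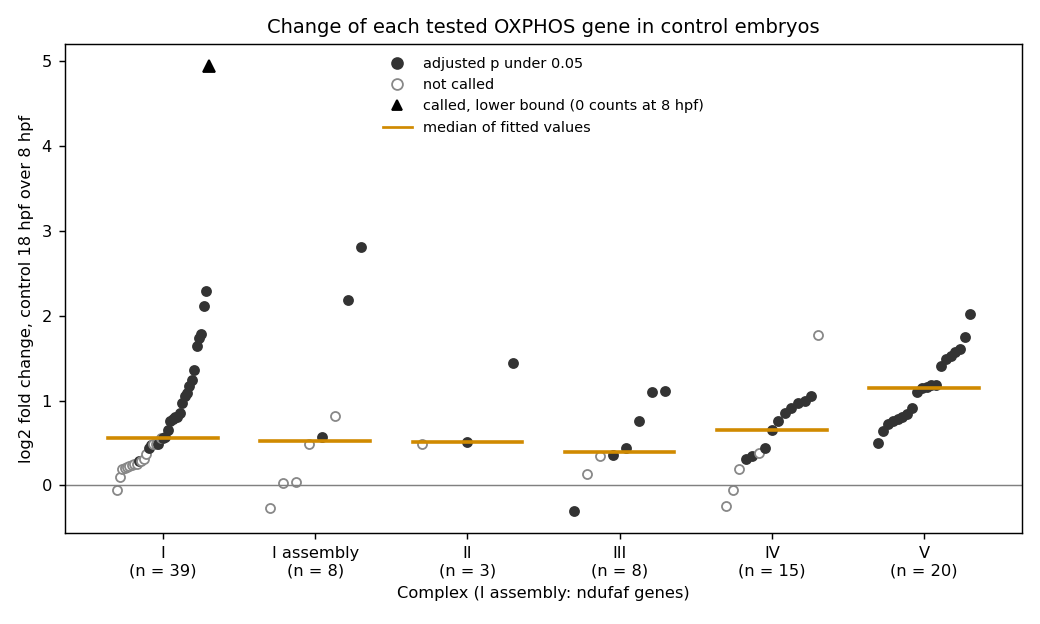
log2 fold change of 18 over 8 hpf in control embryos for each of the 93 tested genes, grouped by complex and ordered by value within it. Filled points passed an adjusted p of 0.05, open points did not, the triangle is the lower bound of ndufa4b and lines are medians; all 20 genes of complex V are called and above 0, and UQCRFS1 in complex III is the single call below 0.

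**Figure D3:**
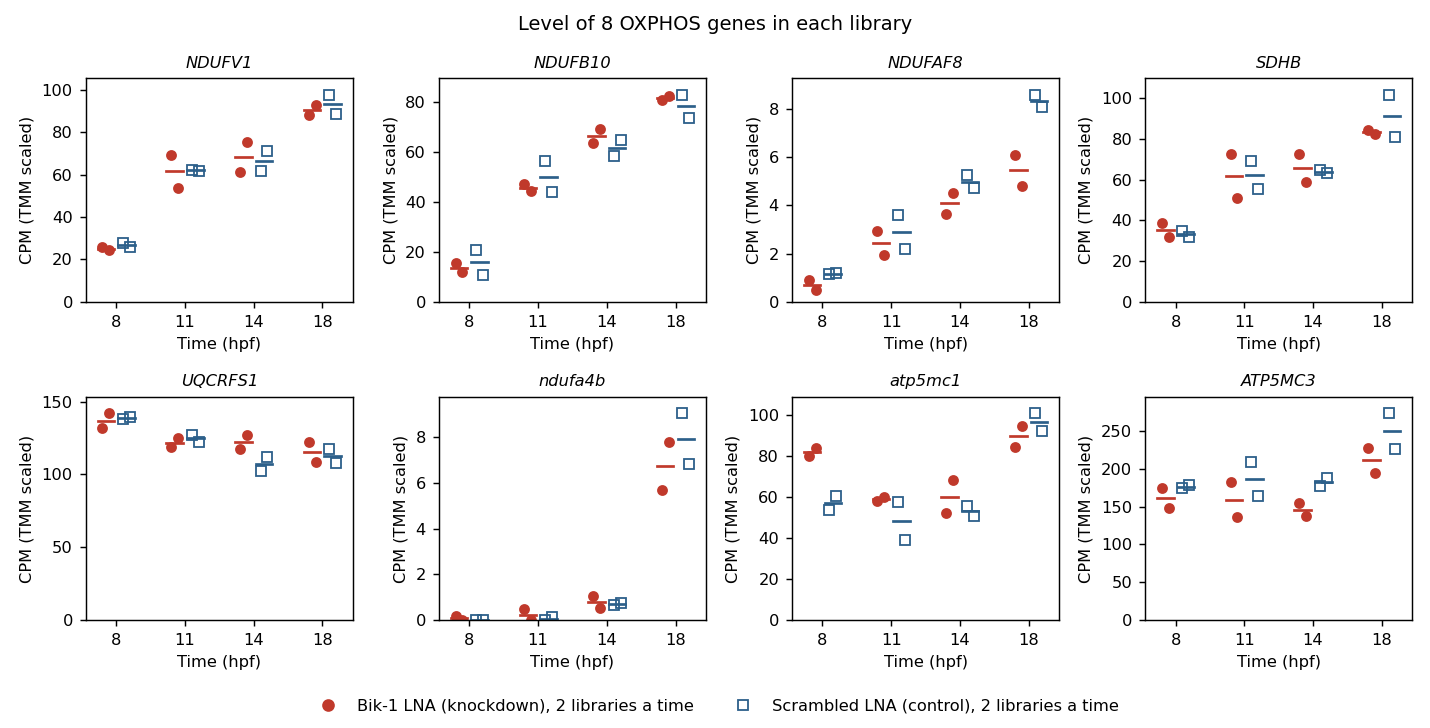
Level in CPM (vertical axis from 0) of 8 genes at 8, 11, 14 and 18 hpf, with filled circles for knockdown libraries, open squares for control libraries and short lines for means of 2. NDUFV1, NDUFB10 and SDHB climb early, ndufa4b and the controls of atp5mc1 late, and UQCRFS1 is highest at 8 hpf.

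Bik-1 LNA was compared with scrambled LNA to ask which of these genes differ where BHIKHARI is lowered, though not absent. At no time did a gene of the set pass the main test, which took no account of replicate numbers. With those numbers as a block, edgeR called NDUFAF1 and atp5mc1 at 8 hpf, atp5if1a at 14 hpf and 10 genes on average. The shares of all features called there were 3.5%, 1.77% and 11.8%. In the main edgeR test 0 of 93 were called at 8 hpf, where 0.344% of all features were called, 0 at 11 hpf (0.00563%), 0 at 14 hpf (0.00563%) and 0 at 18 hpf (0.0113%). At an unadjusted p under 0.05 there were 2, 2, 4 and 0 genes at 8, 11, 14 and 18 hpf, and DESeq2 called 0 at each time. Among all 17756 features 1631, 823, 991 and 799 were under that unadjusted threshold. Averaged over the 4 times 0 of 93 were called, where 1.63% of all features were, and DESeq2 called 0. At an unadjusted p under 0.05 there were 10 (3 higher and 7 lower), beside 2741 of all 17756 features (1296 higher and 1445 lower). Without knockdown 11 hpf replicate 1, 6 of 93 genes were called on average, where 5.7% of all features were: ATP5F1A higher, and ATP5MC3, NDUFAF1, ATP5F1C, atp5mj and COX5A lower, with log2 fold changes of -0.45 to 0.20.

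The medians of the 93 log2 fold changes were 0.0047, -0.014, -0.033 and -0.012 at 8, 11, 14 and 18 hpf and -0.019 on average, beside medians over all features of 0.0053, 0.0032, 0, 0 and 0.0094. A missed threshold does not show that levels were equal, so the 95% intervals are given. For the average effect the whole interval lay within a change of 1.25-fold in 65 of 93 genes, within 1.5-fold in 88 and within 2-fold in 91. At single times it lay within 1.5-fold in 63 genes at 8 hpf, 72 at 11 hpf, 61 at 14 hpf and 71 at 18 hpf, and within 1.25-fold in 8 at each time.

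**Figure D4:**
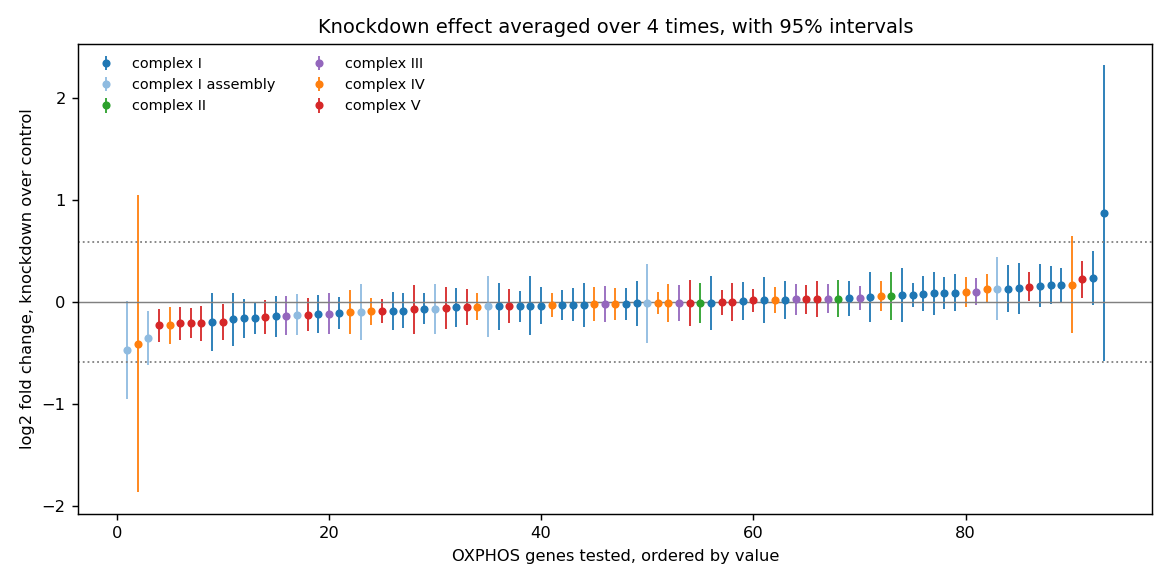
log2 fold change of knockdown over control, averaged over 4 times, for the 93 tested genes in order of value, coloured by complex, with 95% intervals; dotted lines mark 1.5-fold. The whole interval lies within those lines in 88 genes, and the wide intervals at the ends belong to genes with few counts.

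In each complex the gene with the largest average difference among those at 10 CPM or more was examined, and none was called in the main test. In complex V this was ATP5MC3, a c ring gene. It had 174 and 148 CPM in knockdown against 174 and 178 in control embryos at 8 hpf, 182 and 136 against 209 and 164 at 11 hpf, 154 and 138 against 177 and 187 at 14 hpf, and 228 and 195 against 273 and 226 at 18 hpf. Knockdown lay below control at 14 hpf, lay below it by a margin under 1 CPM at 8 hpf, and overlapped with it at 11 and 18 hpf. Between libraries of the same replicate number, knockdown was the lower at every time. With those numbers as a block the edgeR adjusted p of the average was 0.000595, where 11.8% of all features were called. Without the expression filter it was 0.0423, where 3.92% were. The average log2 fold change was -0.23 with a 95% interval of -0.39 to -0.07 (edgeR adjusted p = 0.159, and 0.0260 without knockdown 11 hpf replicate 1). In complex IV it was COX5A, the subunit Va, with 39.2 and 33.1 CPM in knockdown against 47.3 and 45.6 in control embryos at 8 hpf, 54.0 and 40.5 against 67.6 and 53.8 at 11 hpf, 55.6 and 65.0 against 64.8 and 70.6 at 14 hpf, and 86.5 and 85.0 against 96.7 and 78.4 at 18 hpf. Its average was -0.23 with an interval of -0.41 to -0.05 (edgeR adjusted p = 0.203, and 0.0499 without knockdown 11 hpf replicate 1), and the groups were separate only at 8 hpf. Between libraries of the same number COX5A was lower in knockdown except in replicate 2 at 18 hpf. With the block its edgeR adjusted p was 0.0114. NDUFB6 in complex I, SDHC in complex II and UQCR10 in complex III had averages of 0.23, 0.06 and -0.13, each with an interval that holds 0. In the main edgeR test the lowest adjusted p of the 93 was 0.149, for ATP5F1D of the F1 head at -0.21 (interval -0.35 to -0.06).

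At 8 hpf atp5mc1 had 80.1 and 83.8 CPM in knockdown against 53.5 and 60.4 in control embryos, and the groups did not overlap. The log2 fold change was 0.53 with an interval of 0.16 to 0.89 (edgeR adjusted p = 0.287), and at 11, 14 and 18 hpf the values were 58.3 and 60.1 against 57.8 and 38.9, 52.1 and 68.2 against 55.5 and 51.0, and 84.5 and 94.7 against 101 and 92.3. NDUFAF1 had 12.8 and 9.26 CPM in knockdown against 21.0 and 16.1 in control embryos at 8 hpf, a difference of -0.75 with an interval of -1.30 to -0.20, also not called. These were the 2 genes at an unadjusted p under 0.05 at that time. The knockdown effect was not found to differ between times: edgeR called 0 of 93, where 0% of all features were called, with 0 genes at an unadjusted p under 0.05 and 0 in DESeq2. The lowest unadjusted p-values were 0.103 for NDUFB2, 0.105 for atp5mc1 and 0.182 for NDUFB7 (edgeR adjusted p = 1.00 each). The effect at 18 hpf minus that at 8 hpf was called in 0 of 93, with 3 lower at an unadjusted p under 0.05 and 0 in DESeq2, again beside 0% of all features. At that unadjusted threshold 468 of all 17756 features differed between times, and 395 were lower for 18 minus 8 hpf.

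The rise with time was present in both treatments. Between 8 and 18 hpf 61 of 93 genes rose in knockdown embryos, where 33% of all features rose and 24.9% fell, and 64 of 93 in control embryos. Falls numbered 0 in knockdown, with 2 lower at an unadjusted p under 0.05 and 0 lower in DESeq2, and 1 in control embryos. The median log2 fold changes were 0.73 in knockdown and 0.76 in control embryos. By complex the risen genes in knockdown and control embryos were 24 and 24 of 39 in complex I, 3 and 2 of 3 in complex II, 3 and 5 of 8 in complex III, 9 and 10 of 15 in complex IV, 18 and 20 of 20 in complex V, and 4 and 3 of 8 assembly factors. The complex V genes not called in knockdown were atp5mc1 (0.13) and atp5if1a (0.26). As given above, the test of the difference between treatments called none of these genes.

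**Figure D5:**
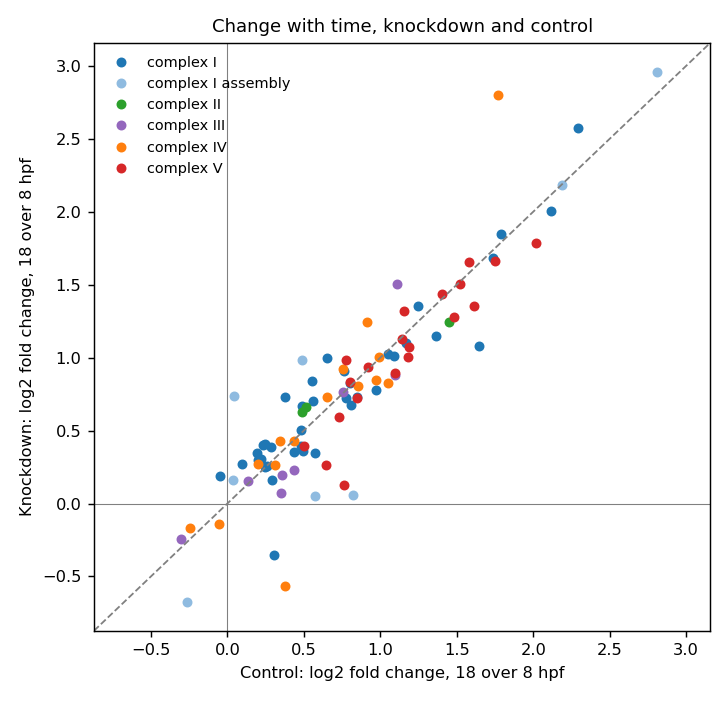
log2 fold change of 18 over 8 hpf in knockdown embryos (vertical) against control embryos (horizontal) for 92 of the tested genes, coloured by complex; ndufa4b, which has no counts in controls at 8 hpf, is left out. The dashed line marks equal change, and the medians of all 93 genes are 0.73 and 0.76.

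Other genes of mitochondrial supply were counted for comparison in controls at 18 against 8 hpf, where 33.7% of all features rose and 26.4% fell. CYC1, the cytochrome subunit of complex III, and cycsb, a cytochrome c, were both uncalled at -0.13 and -0.32 (edgeR adjusted p = 0.306 and 0.0913). Of 38 assembly factors outside the rule 19 rose and 1 fell, with TMEM126A, a complex I factor, at 3.07 and SCO1, a copper carrier for complex IV, at -0.72. In the citric acid cycle 10 of 14 tested genes rose and 1 fell: ogdha, of the oxoglutarate dehydrogenase, by 2.62 upward, and IDH3G, a subunit of isocitrate dehydrogenase, at -1.45. Of 23 tested glycolysis genes 13 rose, among them ENO1 (ENSDARG00000022456), an enolase, at 4.79, while LDHB was at 0.24 without a call. Falls among the glycolysis genes are not given here. The median log2 fold changes of these lists were 0.84, 1.31 and 1.26, beside 0.76 for the 93 genes.

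Regulators of mitochondrial biogenesis moved in both directions. Of 12 tested, 3 rose and 5 fell between 8 and 18 hpf in controls, where 33.7% of all features rose and 26.4% fell. The coactivator gene ppargc1b rose by 4.10 and TFAM, which packages mitochondrial DNA and takes part in its transcription, by 0.77 (edgeR adjusted p = 1.76e-08 and 0.000349). The related coactivator gene pprc1 was at -1.45, the nuclear receptor gene ESRRA at -2.52 and GABPA, the DNA-binding subunit of GA-binding protein, at -1.12, all called. NRF1 was at -0.36 and not called (edgeR adjusted p = 0.0853). Among translation genes, 38 of 75 mitochondrial ribosomal protein genes rose and 5 fell with a median of 0.50. In the cytosolic ribosomal list 79 of 84 genes rose and 2 fell with a median of 1.58. These 84 were matched by the start of the symbol and take in rps19bp1, a binding protein of RPS19, and RPL7L1, a gene like RPL7. The cytosolic ribosomal share of counts in controls was 4.60% and 4.64% at 8 hpf, then 7.90% and 7.51% at 11 hpf, 9.33% and 10.6% by 14 hpf and 14.0% and 14.9% by 18 hpf.

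In the knockdown average 1.63% of all features were called, and these lists also gave few calls. One gene each was called in the citric acid cycle list (FH ENSDARG00000075132, fumarase, 0.48), the glycolysis list (PFKL ENSDARG00000099755, a phosphofructokinase, 0.74), the mitochondrial ribosomal list (MRPL11, -0.79), the cytosolic ribosomal list (RPL31, -0.27) and the enveloping layer markers (krt18a.1, a keratin, 0.40). The adjusted p-values from edgeR were 0.0347, 0.0403, 0.00437, 0.0403 and 0.00128. Over 11, 14 and 18 hpf alone those of FH, PFKL and RPL31 were 0.197, 0.126 and 0.164. Leaving out single libraries also ended these calls, with an adjusted p of up to 0.103, 0.117 and 0.129. At an unadjusted p under 0.05, 42 of the 84 genes in the cytosolic ribosomal list were lower in the knockdown average and 1 was higher, with a median of -0.14. Of all 17756 features, 1445 were lower and 1296 higher at that unadjusted threshold. In the lists of cytochrome c, assembly factors and regulators 0 of 2, 0 of 38 and 0 of 12 were called in edgeR, with 0, 3 and 1 genes at an unadjusted p under 0.05.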

How the data were processed

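Polyadenylated RNA of whole embryos was sequenced with a directional library, per the labels' protocols. The authors deposited raw counts per Ensembl gene and per repeat family, and STAR and GRCz11 are named in the submitters' processing notes; which program counted the reads, and with what strand setting, is not given in the sources used here. Each of the 16 single-library tables holds the same counts as the combined table. Ensembl identifiers were matched to symbols by table, many in human-style capitals, and 7 of the 102 genes share a symbol with another. No replicates were merged, since the chi-square per degree of freedom between them was 3.89 or more in each group (highest 31.39), above sampling noise.

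Genes and repeat families were tested in a single fit of all 16 libraries with edgeR 4.0.16 in R 4.3.3 (quasi-likelihood F-test, robust, TMM scaling, filterByExpr on 8 groups, 8 residual degrees of freedom). Calls were made where p, adjusted by Benjamini-Hochberg over the 17756 features kept (16894 genes and 862 families), was under 0.05. All adjusted p-values are from this test unless another tool is named, and the code was tested on simulated data. Intervals are 95% intervals of the fitted log2 fold change. Alternatives were RLE size factors, library totals, no expression filter, DESeq2 1.42.0, genes only, a replicate block, libraries of a single time, and each library left out.

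The genes and lists were chosen with earlier results of these data known. Of 147 list names 10 matched no gene. Genes named by rule were the 5 largest called rises and falls in each control comparison of times (mean of at least 1 CPM), the largest average knockdown difference in each complex (mean of at least 10 CPM), complex II, the 3 lowest p-values for an effect that differs between times, and list genes called in the knockdown. Other genes were named as examples after their values were seen.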

Additional observations from a re-analysis of the deposited data

How the results depend on the processing

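Counts of called genes held within 1.5 times under all alternatives except the following. With the replicate number as a block within each time, 2 genes were called in the knockdown at 8 hpf (NDUFAF1 at -0.75, atp5mc1 at 0.53), where 3.5% of all features were, 1 at 14 hpf (atp5if1a at -0.37), where 1.77% were, and 10 on average, where 11.8% were. These 10 were ATP5F1A and atp5mc1 higher and ATP5MC3, ATP5F1C, ATP5F1D, atp5mj, atp5f1e, atp5if1a, COX5A and NDUFAF1 lower. All but COX5A and NDUFAF1 are among the 20 genes of complex V, and a difference between complexes was not tested. Same-numbered knockdown and control libraries deviated together with correlations of 0.321, 0.495, 0.163 and 0.075 at 8, 11, 14 and 18 hpf. Those at 8 and 11 hpf lay above every correlation between groups of different times, of which the highest was 0.19, while that at 18 hpf was under 0.1. The numbers were not treated as pairs in the main test, and the labels do not say what they mark. Without the expression filter 1 gene was called on average (ATP5MC3), where 3.92% of all features were, and with library totals alone 4 rose from 14 to 18 hpf, where 7.01% did; the cause was not tested. Leaving out single libraries gave 0 to 6 genes for the average knockdown effect, 15 to 36 for 11 over 8 hpf, 0 to 14 for 18 over 14 hpf, 54 to 66 for 18 over 8 hpf in controls and 53 to 61 in knockdown embryos. The number of all features called also moved between these fits. Library totals moved the median of all features for 11 over 8 hpf to 0.19, beside 0.05 with TMM. For 18 over 8 hpf in knockdown they moved it to 0.24, beside 0.12. Relative to those medians the 93 genes stood at 0.28 and 0.62 under both scalings. Average knockdown differences near 0 in complex II changed sign: SDHB was at 0.0062 with library totals, and leaving out single libraries gave -0.075 to 0.050 for SDHB, -0.020 to 0.125 for SDHC and -0.035 to 0.091 for SDHA. With 2 libraries a group, the interval of the average knockdown effect reached beyond a 1.25-fold change in 28 genes. For these a larger change was not excluded, and in the remaining genes smaller changes could still go unresolved. Counts say nothing of protein or respiration.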
